A study of Campylomormyrus compressirostris and Campylomormyrus rhynchophorus and Campylomormyrus compressirostris x Campylomormyrus rhynchophorus with 15 samples.

Results

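The electric organ transcriptome of juvenile F1 hybrids was compared with the average of both parental species, gene by gene and on 2 scales. The hybrids came from a cross of a *Campylomormyrus compressirostris* male (*com*) with a *C. rhynchophorus* female (*rhy*), and fish are named as in the labels (comrhy59 for a hybrid, com104 and rhy49 for purebred fish). All 15 juvenile libraries were used, 5 from hybrids, 5 from *com* and 5 from *rhy*, each from the electric organ of a single fish that was bred and raised in captivity and sampled at a labelled length of 6 cm. Only this direction of the cross was available, so the species of the mother and the hybrid genome cannot be told apart, and the sources used here do not state whether the fish of a group were siblings. The p-values measure the spread between these fish. Of 34492 gene models, 27561 had at least 1 count and 18489 had a rounded count above 10 in at least 2 libraries. These 18489 genes were tested.

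Electric organs of mormyrid fish consist of electrocytes, flattened cells that derive from skeletal muscle and fire together to produce the electric organ discharge (EOD). Sodium and potassium channels of the electrocyte membrane shape the duration of this discharge, which is short in adult *com* and much longer in adult *rhy*. A hybrid carries 1 copy of each parental genome. If each copy kept the output that it has in its own species, the hybrid would lie at the arithmetic mean of the parents, whereas the mean on a log scale, the geometric mean, is the level usually set as zero in a linear contrast of log expression.

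Library totals ran from 12973350 to 19259304 counts in hybrids, from 8346577 to 11549622 in *com* and from 12502114 to 13927972 in *rhy*. Of all counts in a library, 4.38% to 5.89% came from its most abundant gene in hybrids, 3.63% to 19.3% in *com* and 2.64% to 5.18% in *rhy*. The label of the tissue was checked with 8 genes of electric organ and muscle, among them *SCN4AA*, the sodium channel of muscle and electric organ, and *TMOD4*, a capping protein of muscle thin filaments. Their summed level was 3983 to 4391 CPM (counts scaled to library size with TMM factors) in hybrids, 4461 to 7517 in *com* and 3154 to 3938 in *rhy*. These sums combined opposite differences. The potassium channel *KCNJ2* averaged 196 CPM in *com* and 2077 CPM in *rhy*, and *KLHL30* was also higher in *rhy*. The other members were higher in *com*, mainly *SCN4AA* and the potassium channel *KCNA7A_1*. Their means were 3283.5 and 1023 CPM in *com* and 990 and 32.7 CPM in *rhy*. *KCNJ2* and *KCNA7A_1* were below the arithmetic mid-parent, as described with the channels below. All 8 were detected in every fish, apart from *MYOCD*, a muscle transcription cofactor, which was at 0 in some *rhy* fish. The 4 leukocyte markers summed to between 48.2 and 51.8 CPM in hybrids, to between 43.1 and 56.9 in *com* and to between 52.8 and 67.8 in *rhy*, of which *NLRP12* made up most.

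Against the log2 mid-parent, 591 genes lay above (3.2% of the genes tested) and 248 below (1.34%), with an adjusted p under 0.05 and a log2 difference beyond 1. In either direction there were 839 genes (4.54%). Against the arithmetic mid-parent the balance turned round: 269 genes lay above (1.45%) and 511 below (2.76%), 780 in all (4.22%). On at least 1 scale 1103 genes (5.97%) were called. All 269 genes above the arithmetic mid-parent were also above the log2 mid-parent, and 245 genes (1.33%) lay below both, so that 514 genes (2.78%) were off the mean of the parents on either way of averaging. The geometric mean never exceeds the arithmetic mean, so passing the fold limit above the latter entails passing it above the former. The share of calls that were above was 70.4% on the log2 scale and 34.5% on the arithmetic scale. Scaling by library totals in place of TMM shifted the median of all genes by 0.11 on the log2 scale and gave 790 above and 184 below (81.1% above) on the log2 scale, and 385 above and 395 below (49.4% above) on the arithmetic scale.

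The numbers above the mid-parent leaned on a pair of hybrids. Without comrhy60, 377 genes were above on the log2 scale and 153 on the arithmetic scale, and without comrhy62 there were 382 and 147. Leaving out comrhy62 reduced the genes called on both scales to 332. With both fish left out, a choice made after the data were seen, 1.4% of the genes tested were above and 0.676% below the log2 mid-parent, and 0.454% were above and 1.83% below the arithmetic mid-parent. The excess of calls above on the log2 scale and below on the arithmetic scale was thus present among the remaining 3 hybrids, in smaller numbers.

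**Figure D1:**
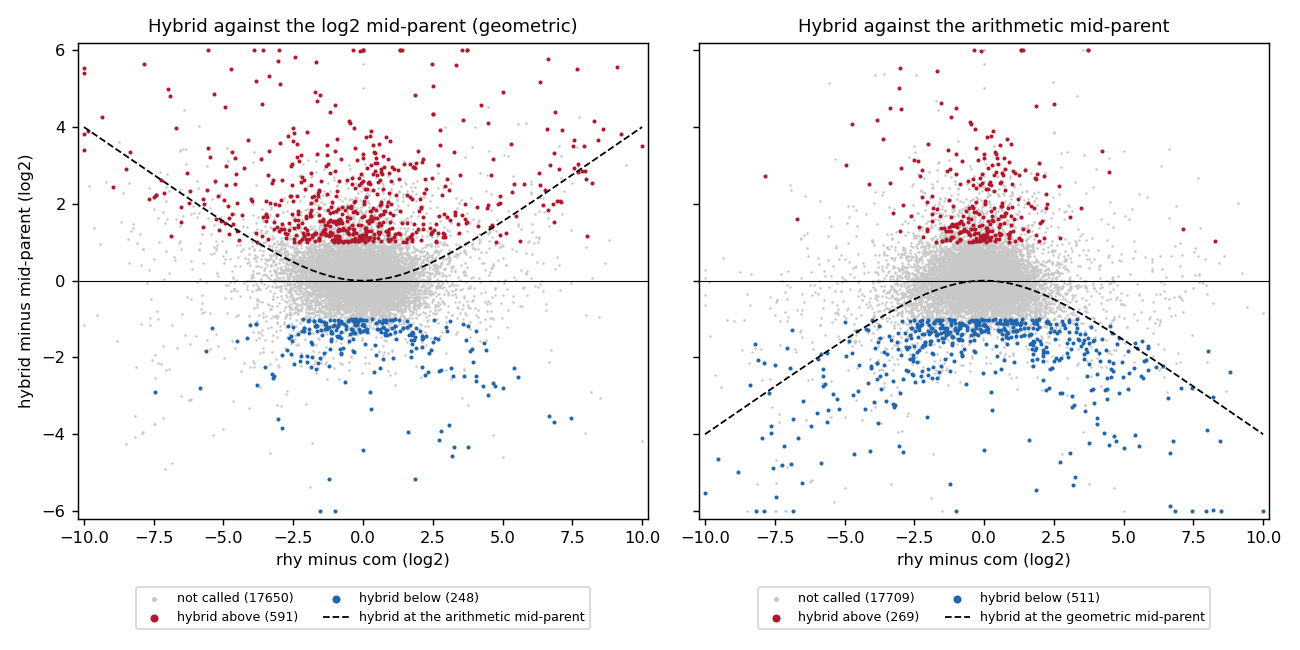
Each point is 1 of the 18489 genes tested, plotted by the difference between the parents (x axis, *rhy* minus *com*, log2) and the difference between the hybrids and the log2 mid-parent (left, y axis, log2) or the arithmetic mid-parent (right). Values beyond the axes are drawn at their edge (10 on the x axis, 6 on the y axis). Red points are genes called above (591 left, 269 right) and blue points genes called below (248 left, 511 right), and the dashed curve is where a hybrid exactly at the other mid-parent would lie.

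The 2 yardsticks part with the distance between the parents, and so did the calls. Among the 8309 genes whose parents differed by less than 0.5 on the log2 scale, 111 were above and 45 below the log2 mid-parent, and 96 were above and 52 below the arithmetic mid-parent. Among the 529 genes whose parents differed by more than 4, 119 (22.5%) were above and 22 (4.16%) below the log2 mid-parent, but 9 (1.7%) were above and 23.3% below the arithmetic mid-parent. The median hybrid level in this widest class was 1.90 times the geometric mean and 0.526 times the arithmetic mean of the parents. In the class between 2 and 4 (1462 genes) these medians were 1.19 and 0.83.

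Many of the strongly divergent genes lay between both averages. The fitted hybrid level was above the geometric and below the arithmetic mean for 42.2% of the genes with a parental difference above 4, for 25.9% of those between 2 and 4, and for 7.13% of all genes tested. Since the room between both averages widens with the parental difference, part of this rise is set by the arithmetic of the means. In the classes above 2, the share of calls below was higher where *rhy* was the higher parent. Among genes that differed by more than 4, 64 of 250 with higher *rhy* (25.6%) and 59 of 279 with higher *com* (21.1%) were below the arithmetic mid-parent, and 6.0% and 2.51% were below the log2 mid-parent. In the class between 2 and 4, 14.6% of the genes with higher *rhy* and 8.94% of those with higher *com* were below the arithmetic, and 6.55% and 3.02% below the log2 mid-parent. Calls above the log2 mid-parent were also more frequent with higher *rhy* (10.7% against 9.38% in this class, 23.6% against 21.5% above 4). Above the arithmetic mid-parent the shares were 2.43% against 2.48% in this class and 1.6% against 1.79% above 4. The median hybrid level among genes that differed by more than 4 was 0.582 times the arithmetic mean where *rhy* was higher and 0.488 times where *com* was higher. None of these differences was tested. Reads of all groups were mapped to the *com* genome, and whether this lowered the levels of *rhy* and of the *rhy* copy in hybrids was not tested.

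**Figure D2:**
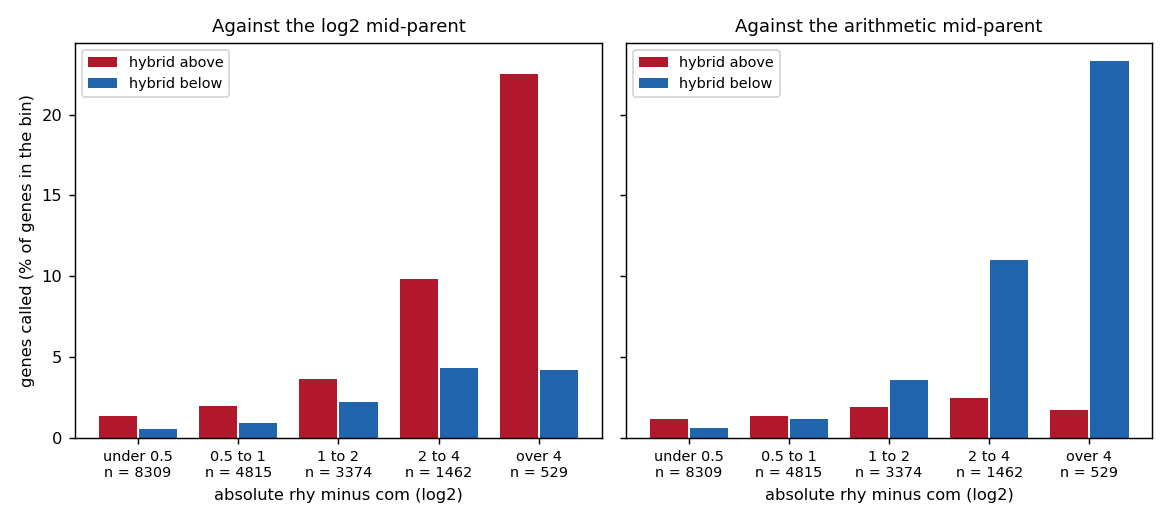
Percentage of genes called above (red) and below (blue) the log2 mid-parent (left) and the arithmetic mid-parent (right), in classes of the absolute log2 difference between *rhy* and *com* (x axis, with the number of genes). In the widest class 22.5% of genes were above the log2 mid-parent and 23.3% were below the arithmetic mid-parent.

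The genes called on a single scale were the more divergent ones. Both averages coincide where the parents are equal and part only as they diverge, so the arithmetic of the means largely sets this. The 320 genes above the log2 mid-parent alone had a median parental difference of 2.78, and the 264 genes below the arithmetic mid-parent alone one of 3.3, against a median of 0.571 over all genes tested. The mean of the hybrids lay between the means of the parents for 122 of these 320 genes and for 195 of these 264 genes. By contrast, the 269 genes above on both scales had a median parental difference of 0.823. The hybrid mean exceeded both parental means in all of them, which the fold limit sets in advance. A log2 difference above 1 against the arithmetic mid-parent puts the hybrid level above the sum of both parents. The 245 genes below on both scales had a median parental difference of 1.47. Of these 245 genes, 218 had a hybrid mean under both parents and 27 lay between them. Where the parents differ by less than 2 on the log2 scale, passing the fold limit below the log2 mid-parent puts the hybrid level under both. The fold limit thus sets part of this count in advance. All 5 hybrids exceeded all 10 purebred fish in 67 of the 269 genes, and all 5 fell below them in 45 of the 245. Over all genes tested, such a complete separation above or below was found for 163 genes (0.882%) and 152 genes (0.822%).

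For 4 genes the hybrids differed from both averages in opposite directions, above the log2 and below the arithmetic mid-parent with an adjusted p under 0.05 on each. They were picked out for this after their values were seen. A pair of them passed the fold limit on both sides, the unnamed models maker-ptg000744l-snap-gene-8.12 (log2 differences of 1.17 and -1.84) and maker-ptg000457l-augustus-gene-27.86 (1.15 and -1.30). The other pair had smaller differences on 1 or both scales and were the potassium channel *KCNA7A_1*, described with the channels below, and *SYNGR3*, which encodes synaptogyrin-3, a membrane protein of synaptic vesicles.

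*SYNGR3* had 109, 129, 165, 133 and 117 CPM in hybrids, 15.5, 7.90, 11.7, 13.6 and 12.9 CPM in *com*, and 353, 364, 316, 423 and 340.2 CPM in *rhy*. The 3 groups did not overlap, and every hybrid stood between the species. The hybrid mean of 131 CPM was above the geometric mean of the parents (66.5 CPM) and below their arithmetic mean (186 CPM). The difference was 0.97 ± 0.13 (SE) on the log2 scale (adjusted p = 0.000325) and -0.51 ± 0.15 on the arithmetic scale (adjusted p = 0.036). With 4 other neuronal and glial markers, *SYNGR3* summed to 193 to 261 CPM in hybrids, 112 to 124.05 CPM in *com* and 446 to 632 CPM in *rhy*. Most of the *rhy* sum came from *SYNGR3* and *CLDN11* (means of 359 and 151 CPM). The others, *GRIA3*, *DLGAP2* and *CADM1*, went the other way. Their means were 44.3, 27.8 and 0.839 CPM in *com* and 6.40, 5.74 and 0.193 CPM in *rhy*. *CADM1*, an adhesion molecule, was at 0 in some *rhy* fish, and none of these 5 markers was called on either scale. What share these cells had in the result was not tested, and in bulk tissue more cells of a type and more RNA per cell cannot be told apart.

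Ion channels and transporters were taken from the study's gene tables as a list of 12, all of which were tested. The study chose these genes partly on the same fish, so their counts are not independent evidence. On the log2 scale 1 of the 12 was above and none below the mid-parent, against 3.2% and 1.34% of all genes tested, and without the fold limit 4 were above, against 7.45%. On the arithmetic scale none was above and 3 were below, against 1.45% and 2.76% of all genes tested. Their median difference was 0.25 on the log2 scale and -0.13 on the arithmetic scale, against 0.04 and -0.02 over all genes tested, and their median parental difference was 2.53, against 0.571.

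The inward rectifier *KCNJ2*, a potassium channel that holds the resting potential of muscle cells, was far below the arithmetic mid-parent. It had 399.9, 357, 394, 342 and 455 CPM in hybrids, 374, 109.8, 146, 173 and 175 CPM in *com*, and 2288, 2367, 1534, 2572 and 1625 CPM in *rhy*. All 5 hybrids were far below every *rhy* fish and above 4 of the 5 *com* fish, with com104 inside the range of the hybrids. The hybrid mean of 389.5 ± 44.0 CPM (SD, n = 5) was 0.343 times the arithmetic mean of the parents (1136 CPM). The difference was -1.54 ± 0.25 on the arithmetic scale (adjusted p = 0.000995). On the log2 scale it was -0.71 ± 0.22 with an adjusted p of 0.0538, short of the limits of a call.

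The voltage-gated potassium channel *KCNA7A_1* showed the reverse order of the parents. Its identifier is malformed in the study's table and was read as the model maker-ptg000028l-snap-gene-81.10, so the name rests on that reading. Its levels were 217, 257, 279, 249 and 245 CPM in hybrids, 1147, 854, 1010.4, 1151 and 954 CPM in *com*, and 31.8, 23.7, 37.2, 27.4 and 43.4 CPM in *rhy*. The groups were fully separate, with the hybrids in the middle and closely spaced. The hybrid mean was 0.472 times the arithmetic mean of the parents, a difference of -1.08 ± 0.14 (adjusted p = 0.000239), and it was above the log2 mid-parent by 0.45 ± 0.13 (adjusted p = 0.0283). Scaled by library totals, the arithmetic difference was -0.90 and fell within the fold limit. The model next to it by its number, maker-ptg000028l-snap-gene-81.11, looked at after its values were seen and without a name in the study's tables, averaged 5.65 CPM in hybrids, 85.5 CPM in *com* and 2.001 CPM in *rhy*. It was below on both scales, with differences of -1.22 (log2) and -2.96 (arithmetic). Whether both models share reads was not tested.

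*KCNQ5A*, which encodes a slowly activating potassium channel, was the only member of the list above the log2 mid-parent by more than the fold limit. Its levels were 11.1, 11.3, 11.8, 7.34 and 9.39 CPM in hybrids, 16.3, 6.09, 4.69, 12.1 and 10.5 CPM in *com*, and 1.73, 0.924, 2.03, 0.884 and 1.03 CPM in *rhy*. Hybrids and *com* overlapped, and both were above all *rhy* fish. The difference was 1.48 ± 0.27 on the log2 scale (adjusted p = 0.00212) and 0.85 ± 0.29 on the arithmetic scale (adjusted p = 0.0631). Without com104 the arithmetic difference was 1.07 and passed the limits.

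*SCN4AA* was among the most abundant genes named here. It had 2525, 2986, 2709, 2879.7 and 2848 CPM in hybrids, 4975, 2709, 2811, 3301 and 2623 CPM in *com*, and 1046, 1072, 1030.3, 833 and 968 CPM in *rhy*. The hybrids overlapped *com*, with comrhy59 below the lowest *com* fish, and were above every *rhy* fish. The hybrids exceeded the log2 mid-parent by 0.63 ± 0.14 (adjusted p = 0.00688), under the fold limit, and the arithmetic mid-parent by 0.38 ± 0.14 (adjusted p = 0.0887, 95% interval 0.08 to 0.69). Leaving out single fish gave arithmetic differences of 0.33 to 0.53, the highest without com104. The adjusted p then ranged from 0.00133 to 0.176, and every difference stayed under the fold limit.

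*CACNA2D1*, whose product is an accessory part of voltage-gated calcium channels, was the third channel gene below the arithmetic mid-parent. Its levels were 0.293, 0.665, 0.143, 1.24 and 0.549 CPM in hybrids, 5.30, 5.62, 7.24, 3.60 and 7.68 CPM in *com*, and 0, 1.21, 0.140, 1.12 and 0.0685 CPM in *rhy*. Hybrids and *rhy* overlapped, and both lay below all *com* fish. The difference was -2.42 ± 0.66 on the arithmetic scale (adjusted p = 0.0248) and -1.54 ± 0.62 on the log2 scale (adjusted p = 0.125). Leaving out com123, comrhy59 or comrhy61 raised the adjusted p of the arithmetic difference to between 0.0519 and 0.0531.

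The remaining 7 members of the list were called on neither scale. *GRIA3*, a subunit of AMPA glutamate receptors, averaged 22.1 CPM in hybrids, 44.3 in *com* and 6.40 in *rhy*, with a difference of 0.39 on the log2 scale (adjusted p = 0.0339) and -0.20 on the arithmetic scale (95% interval -0.46 to 0.07). *SLC8A1*, a sodium-calcium exchanger, had low levels of 0.141 CPM in hybrids, 1.11 in *com* and 0.158 in *rhy* and an arithmetic difference of -2.03 with a wide interval from -4.14 to 0.08. *SLC24A2*, an exchanger of sodium for calcium and potassium, had a difference of -0.52 on the arithmetic scale (-1.14 to 0.10). For *PKD1* (polycystin-1), *NALCN* (a sodium leak channel), *CACHD1* (a relative of calcium channel subunits) and *ATP13A2* (a lysosomal transport ATPase), the arithmetic differences were 0.16, -0.06, 0.05 and 0.05. The interval of *CACHD1*, with 44 counts in all hybrids together, spanned -1.35 to 1.45.

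**Figure D3:**
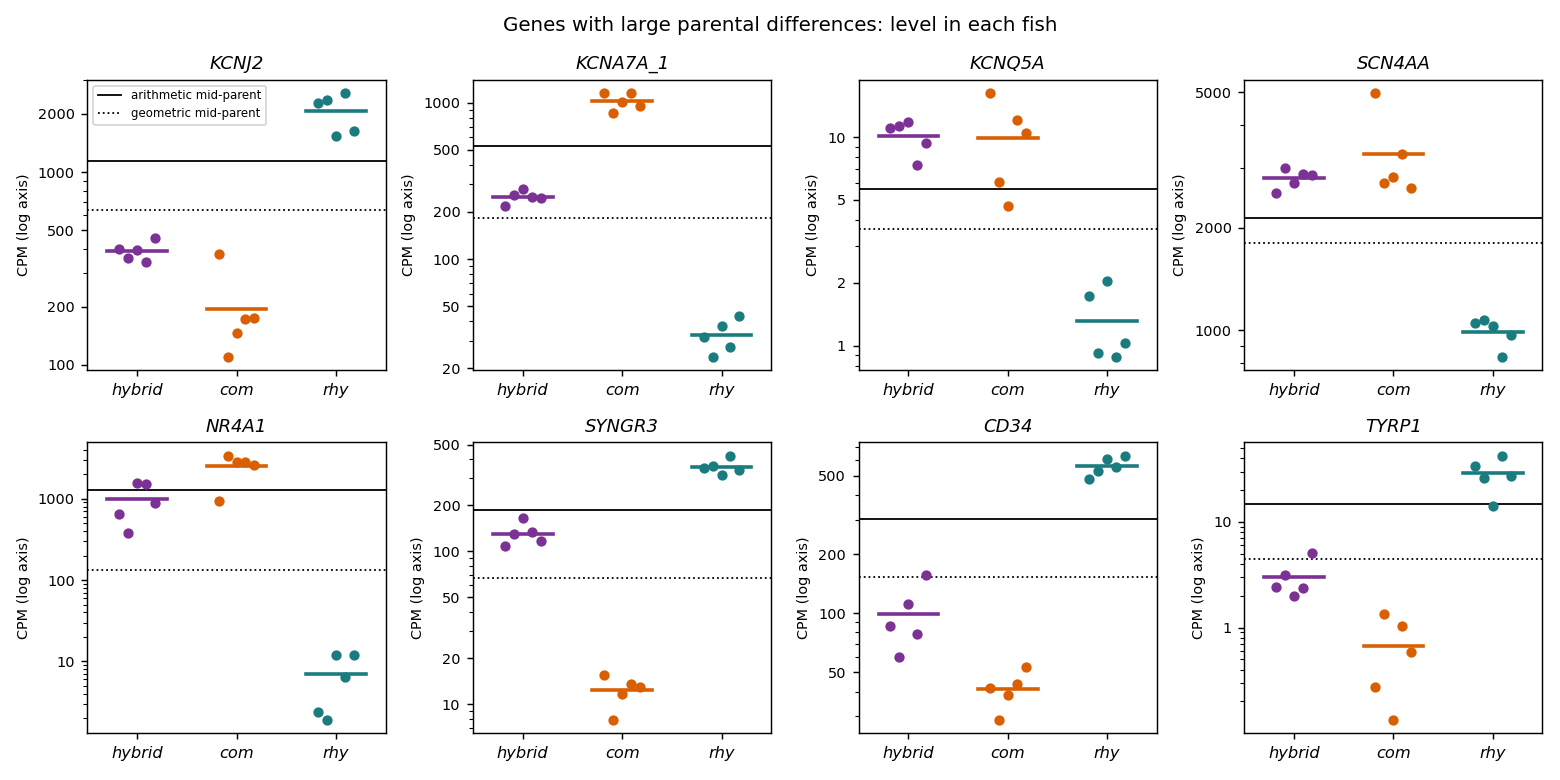
Level of 8 genes in every fish (CPM, log axis), with hybrids in purple, *com* in orange and *rhy* in green. Coloured bars are group means, the solid line is the arithmetic and the dotted line the geometric mean of the parents. In *KCNA7A_1* and *SYNGR3* all 5 hybrids lie between both lines, and in *KCNJ2* all 5 lie below both.

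Of the 145 named genes in the study's tables, 136 were matched and tested. On the log2 scale 11 were above and 5 below, against 3.2% and 1.34% of all genes tested, and on the arithmetic scale 4 were above and 16 below, against 1.45% and 2.76%. Their median differences were 0.10 and -0.14. As a set chosen by the study partly for differences between these species, they had a median parental difference of 1.39, and their counts say nothing about other genes. Above on both scales were *ARHGAP27*, *LSR*, *NOG2* and 1 of the gene models of *DACH1*. Below on both were *CPNE7*, *C18orf21*, *SHC4*, *TIMELESS* and *GPR39*.

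*ARHGAP27* was the named gene with the clearest excess in hybrids. It had 131, 149, 119.9, 124.2 and 105 CPM in hybrids, 84.9, 55.9, 34.7, 27.6 and 43.4 CPM in *com*, and 39.3, 44.6, 50.8, 37.999 and 45.0 CPM in *rhy*. Every hybrid was above every purebred fish. As the parental means were close (49.3 and 43.5 CPM), the difference was 1.44 ± 0.19 on both scales (adjusted p = 0.000298 log2 and 0.000276 arithmetic), or 2.71 times the arithmetic mean.

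*DACH1*, a transcriptional cofactor of the sine oculis and eyes absent network in muscle and other tissues, is represented by a pair of models, which may split reads of a single gene. The model maker-ptg000922l-augustus-gene-6.4 (labelled second in the plot of intervals) had 1.03, 1.33, 2.71, 1.30 and 1.95 CPM in hybrids, 0.366, 0.666, 0.670, 0.581 and 0.591 CPM in *com*, and 0.300, 0.284, 0.351, 0.402 and 0.480 CPM in *rhy*. The hybrids were above all purebred fish, and the difference was 1.84 ± 0.31 (log2, adjusted p = 0.00129) and 1.81 ± 0.31 (arithmetic, adjusted p = 0.00179). This model had 14 to 39 counts in each hybrid, but 4 to 7 in each purebred fish. It passed the low-count filter through the hybrids alone, so its excess in hybrids was partly selected for. The other model, maker-ptg000922l-snap-gene-6.10, had differences of 1.64 ± 0.54 (adjusted p = 0.0475) and 1.63 ± 0.54 (adjusted p = 0.0584). Its call on the log2 scale was lost without any of 12 of the 15 fish, with adjusted p-values up to 0.115.

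*LSR*, a lipoprotein receptor that also sits at tricellular junctions, had 40.0, 49.97, 51.4, 53.7 and 20.1 CPM in hybrids, 27.0, 18.3, 23.7, 19.2 and 20.9 CPM in *com*, and 18.3, 16.2, 23.8, 19.3 and 21.99 CPM in *rhy*. Of the hybrids 4 were above all purebred fish, and comrhy63 lay among them. The difference was 1.05 ± 0.18 (log2, adjusted p = 0.00182) and 1.04 ± 0.18 (arithmetic, adjusted p = 0.00192), just past the fold limit. Leaving out comrhy60, comrhy61 or comrhy62 brought the arithmetic difference to between 0.95 and 0.98 and the log2 difference to between 0.95 and 0.99.

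*NOG2*, a noggin gene whose product binds bone morphogenetic proteins, averaged 9.97 ± 2.46 CPM in hybrids, 5.41 ± 3.91 in *com* and 2.92 ± 1.08 in *rhy* (SD, n = 5 each). All 5 hybrids were above the arithmetic mid-parent, and com121 (11.9 CPM) was within the range of the hybrids. The difference was 1.32 ± 0.32 (log2, adjusted p = 0.0124) and 1.25 ± 0.33 (arithmetic, adjusted p = 0.0203). Without comrhy60 the arithmetic difference was 1.10 with an adjusted p of 0.0646.

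Among the genes below on both scales, *CPNE7* (copine-7, a calcium-dependent phospholipid-binding protein) had 1.61, 0.832, 3.28, 1.84 and 1.498 CPM in hybrids, 49.9, 37.4, 80.4, 33.9 and 23.6 CPM in *com*, and 0.751, 1.28, 0.841, 0.482 and 1.16 CPM in *rhy*. The hybrids overlapped *rhy* and were far below every *com* fish. Their mean was 0.0788 times the arithmetic mean of the parents. The difference was -1.84 ± 0.33 (log2, adjusted p = 0.00322) and -3.68 ± 0.35 (arithmetic, adjusted p = 1.46e-05).

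*C18orf21*, whose product is little studied, had the mirror arrangement. Its levels were 0.733, 0.665, 0.926, 0.888 and 0.899 CPM in hybrids, 1.10, 0.952, 1.34, 1.39 and 1.54 CPM in *com*, and 33.4, 15.8, 12.4, 20.5 and 21.3 CPM in *rhy*. All 5 hybrids were below all 10 purebred fish, but the gap to *com* rests on few counts. Each hybrid had 10 to 18 counts and each *com* fish 10 to 13. The highest hybrid (comrhy61) had 13 counts and the lowest *com* fish (com121) had 10. The difference was -2.62 ± 0.23 (log2, adjusted p = 1.62e-05) and -3.72 ± 0.24 (arithmetic, adjusted p = 1.35e-06).

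*SHC4*, which encodes an adaptor protein of tyrosine kinase signalling, had 0.952, 0.665, 1.57, 0.947 and 0.949 CPM in hybrids, 1.01, 1.62, 1.47, 1.97 and 3.31 CPM in *com*, and 6.54, 32.2, 22.4, 15.7 and 10.3 CPM in *rhy*. The hybrids were near the lower end of *com* and below all *rhy* fish. The difference was -2.49 ± 0.37 (log2, adjusted p = 0.00107) and -3.25 ± 0.39 (arithmetic, adjusted p = 0.000109).

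*TIMELESS*, which protects replication forks and is related to a circadian clock gene of flies, averaged 33.5 ± 9.50 CPM in hybrids, 176 ± 67.8 in *com* and 38.8 ± 7.82 in *rhy* (SD, n = 5 each). Hybrids and *rhy* overlapped, and both were below all *com* fish. The difference was -1.30 ± 0.22 (log2, adjusted p = 0.00224) and -1.68 ± 0.23 (arithmetic, adjusted p = 0.000312).

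*GPR39*, a zinc-sensing receptor, was nearly silent in hybrids and *com*. It had 0, 0.0555, 0, 0.118 and 0 CPM in hybrids, 0.0914, 0, 0, 0.116 and 0 CPM in *com*, and 3.23, 6.40, 3.44, 9.48 and 4.11 CPM in *rhy*. These levels rest on 3 counts in hybrids, 2 in *com* and 360 in *rhy*. The gene passed the low-count filter through *rhy* alone, so the *rhy* level that sets the parental mean was partly selected for. The hybrid mean was 0.0129 times the arithmetic mean of the parents, with a 95% counting interval for the hybrid counts of 0.00267 to 0.0378, which covers counting error only. It was below on the arithmetic scale (adjusted p = 0.000349) and on the log2 scale (adjusted p = 0.0265). Without com104 or com124 the log2 call was lost (adjusted p = 0.0955 and 0.109), as it was with libraries thinned to equal depth (-2.96, adjusted p = 0.129).

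**Figure D4:**
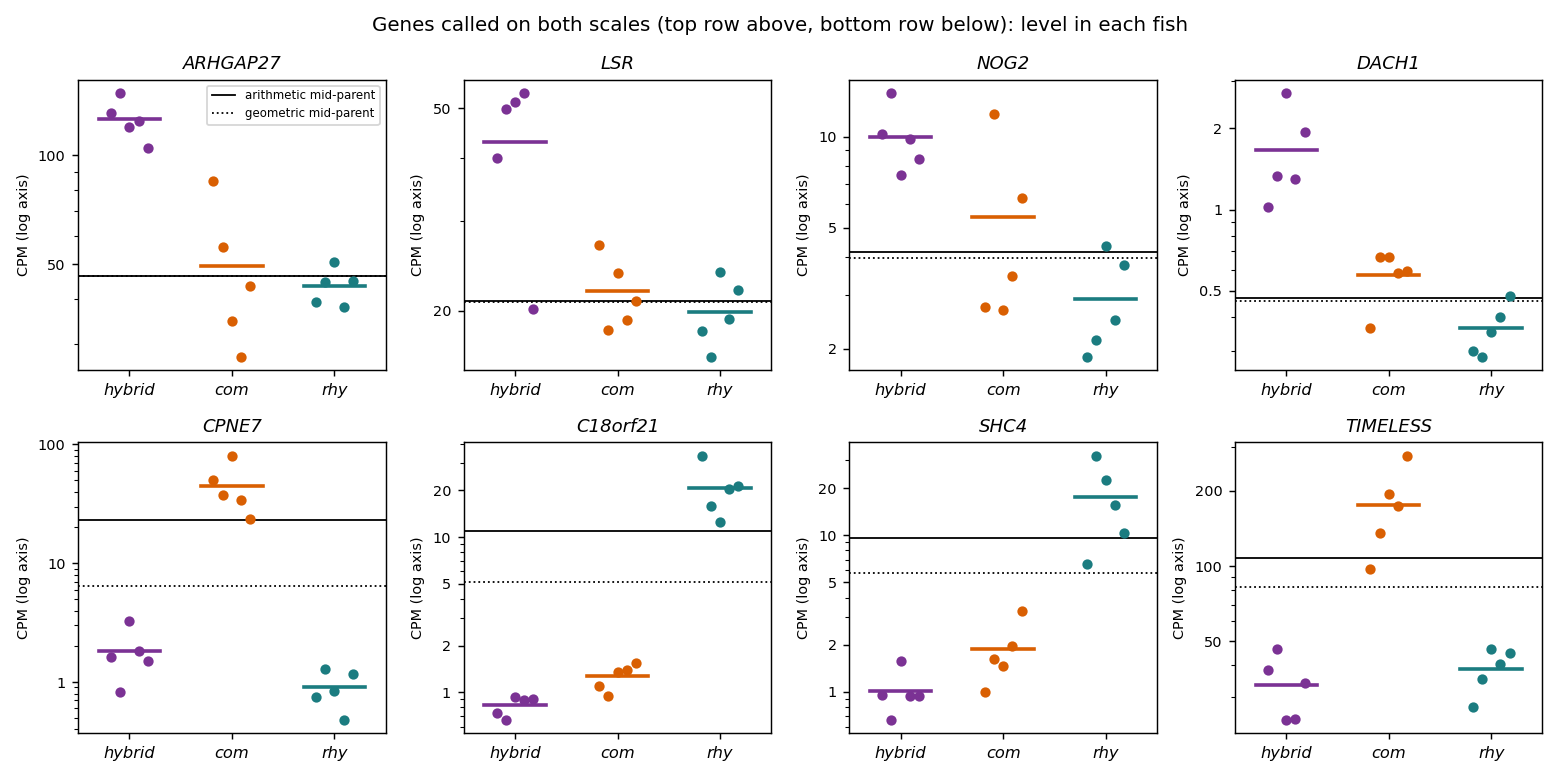
Level in every fish (CPM, log axis) of 8 named genes called on both scales, above in the top row and below in the bottom row, with hybrids in purple, *com* in orange and *rhy* in green. Coloured bars are group means, and the solid and dotted lines are the arithmetic and geometric means of the parents. In *ARHGAP27* and *DACH1* every hybrid is above every purebred fish, and in *C18orf21* every hybrid is below. The *DACH1* model passed the low-count filter through the hybrids alone, and the gap of *C18orf21* to *com* rests on few counts.

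A further 7 named genes were above the log2 mid-parent alone. *NR4A1*, a nuclear receptor induced early by activity and stress, had the widest parental gap among them, with 643, 377, 1575, 1506 and 898 CPM in hybrids, 926, 3386, 2862, 2835 and 2619.5 CPM in *com*, and 2.40, 1.92, 11.8, 6.35 and 12.1 CPM in *rhy*. The hybrids were mostly below *com* and far above *rhy*, and they fell on either side of the arithmetic mean of 1266 CPM. The difference was 2.92 ± 0.43 on the log2 scale (adjusted p = 0.000523) and -0.34 ± 0.49 on the arithmetic scale (adjusted p = 0.704, 95% interval -1.38 to 0.70). Of the 7, *KCNQ5A*, *CPT2*, *C10orf71* and the *DACH1* model snap-gene-6.10 also passed on the arithmetic scale under scaling by library totals. Their arithmetic differences were then 1.01, 1.08, 1.02 and 1.73.

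*CPT2*, a mitochondrial enzyme of fatty acid import, and *C10orf71*, a gene of striated muscle in mammals, were near the fold limit. *CPT2* averaged 46.2 ± 9.57 CPM in hybrids, 32.9 ± 9.33 in *com* and 15.1 ± 2.71 in *rhy* (SD, n = 5 each), a difference of 1.05 (log2, adjusted p = 0.00102) and 0.95 (arithmetic, adjusted p = 0.00235). The call moved with single fish. Without com123 or comrhy63 the log2 difference was 0.99 or 0.95, and without com121, comrhy59 or comrhy62 the arithmetic difference was 1.03, 1.02 or 1.01. *C10orf71* averaged 416 CPM in hybrids, 341 in *com* and 114 in *rhy*, with differences of 1.07 and 0.87. All 5 hybrids were above the arithmetic mid-parent in both genes.

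*CYR61*, a matrix protein that binds integrins, averaged 25.6 ± 5.61 CPM in hybrids, 15.2 ± 11.5 in *com* and 4.17 ± 4.59 in *rhy* (SD, n = 5 each). The difference was 1.68 ± 0.48 on the log2 scale (adjusted p = 0.0271) and 1.39 ± 0.50 on the arithmetic scale (adjusted p = 0.0808). Without com104 or rhy49, which were each high in their group, the arithmetic difference was 1.81 or 1.55 and passed, and without comrhy61 or comrhy63 the adjusted p on the log2 scale was 0.0605 or 0.0519. *TRIM39*, a ubiquitin ligase, had 0.911 CPM in hybrids, 1.199 in *com* and 0.0277 in *rhy*, the last from 2 counts, and its differences were 2.10 (log2, adjusted p = 0.0139) and 0.57 (arithmetic, adjusted p = 0.527). Without comrhy62 the log2 difference of *TRIM39* was 1.64 (adjusted p = 0.057), and on TPM in limma with a pseudocount of 1 it was 0.42 (adjusted p = 0.138).

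Below the arithmetic mid-parent alone lay 11 named genes, among them the channels *KCNJ2*, *KCNA7A_1* and *CACNA2D1*. *TYRP1*, an enzyme of melanin synthesis in pigment cells, had 2.42, 3.16, 1.995, 2.37 and 5.09 CPM in hybrids, 0.274, 1.33, 0.134, 1.05 and 0.591 CPM in *com*, and 33.9, 26.4, 14.2, 42.5 and 27.3 CPM in *rhy*. The groups did not overlap, and the hybrids lay nearer to *com* on the linear scale. The difference was -2.28 ± 0.35 on the arithmetic scale (adjusted p = 0.000698) and -0.56 ± 0.35 on the log2 scale (adjusted p = 0.322). It was the single pigment cell marker of the lists, and the part of pigment cells in this result was not tested.

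*ADRA2B*, an adrenergic receptor, had 8.64, 3.38, 3.42, 7.52 and 15.4 CPM in hybrids, 1.19, 2.47, 3.08, 2.44 and 5.32 CPM in *com*, and 47.6, 60.6, 61.9, 77.2 and 68.3 CPM in *rhy*. Hybrids overlapped *com* and were below all *rhy* fish. The difference was -2.10 ± 0.36 (arithmetic, adjusted p = 0.00162) and -0.80 ± 0.33 (log2, adjusted p = 0.134). Without comrhy63, the highest hybrid, the log2 difference was -1.23 (adjusted p = 0.0223) and passed.

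*CD34*, a surface protein of endothelial and stem cells, averaged 98.7 ± 37.4 CPM in hybrids, 41.1 ± 8.97 in *com* and 564 ± 59.99 in *rhy* (SD, n = 5 each). All hybrids were above all *com* and below all *rhy* fish. The difference was -1.61 ± 0.21 (arithmetic, adjusted p = 0.000179) and -0.62 ± 0.19 (log2, adjusted p = 0.0414, within the fold limit). The 3 endothelial markers together, *CD34*, *FGD5* and *SCARF1*, summed to 167 to 262 CPM in hybrids, 111 to 162 CPM in *com* and 566 to 729 CPM in *rhy*, and *CD34* was the only one of the 3 that was called. Most of the *rhy* sum was *CD34*. *FGD5* averaged 74.0 CPM in hybrids, 48.2 in *com* and 83.6 in *rhy*, while *SCARF1* was lowest in *rhy* (39.3, 40.0 and 17.3 CPM in the same order). Neither *FGD5* nor *SCARF1* was at 0 in any fish, and the part of endothelial cells was not tested.

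*ELP3*, the catalytic subunit of the Elongator complex that modifies transfer RNA, was tightly spaced. It had 12.01, 13.6, 14.96, 12.5 and 17.9 CPM in hybrids, 12.5, 14.6, 17.8, 15.2 and 20.3 CPM in *com*, and 42.3, 43.7, 43.7, 46.0 and 47.7 CPM in *rhy*. Hybrids and *com* could not be told apart by range, and *rhy* stood above both. The difference was -1.09 ± 0.12 (arithmetic, adjusted p = 5.9e-05) and -0.91 ± 0.12 (log2, adjusted p = 0.000323), and without comrhy63 the log2 difference was -1.01 and passed the fold limit.

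*SMAD3*, a transcription factor of TGF-beta signalling, had 0.879, 1.05, 0.855, 1.95 and 1.60 CPM in hybrids, 2.92, 7.71, 5.76, 11.7 and 11.7 CPM in *com*, and 0.902, 0.0711, 1.40, 1.61 and 0.685 CPM in *rhy*. Hybrids overlapped *rhy* and were below all *com* fish. The difference was -1.79 ± 0.47 (arithmetic, adjusted p = 0.0198) and -1.09 ± 0.44 (log2, adjusted p = 0.123). With an offset for the effective gene length the arithmetic difference was -1.15 (adjusted p = 0.0828), and without rhy50 the log2 difference was -1.24 (adjusted p = 0.0378).

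*DNALI1*, a light intermediate chain of axonemal dynein, had 3.44, 1.72, 2.42, 3.02 and 0.400 CPM in hybrids, 4.94, 15.5, 16.9, 25.2 and 15.1 CPM in *com*, and 0.601, 0.498, 0.912, 0.562 and 0.274 CPM in *rhy*. The hybrids were below all *com* fish, and 4 of them were above all *rhy* fish. The difference was -1.88 ± 0.44 (arithmetic, adjusted p = 0.0116) and -0.45 ± 0.42 (log2, adjusted p = 0.534).

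*PDE6A*, a phosphodiesterase subunit known from rod photoreceptors, had 0.0732, 0.832, 0.499, 0.829 and 0.300 CPM in hybrids, 1.01, 3.33, 6.17, 5.11 and 5.67 CPM in *com*, and 0, 0, 0.140, 0.161 and 0 CPM in *rhy*. Every hybrid was below every *com* fish. The difference was -2.05 ± 0.61 (arithmetic, adjusted p = 0.0391) and -0.05 ± 0.66 (log2, adjusted p = 0.981). Leaving out any of com123, com124, com125, comrhy59, comrhy61 and comrhy63 raised the adjusted p of the arithmetic difference to between 0.0659 and 0.0926. Scaled by library totals, the arithmetic difference was -1.83 (adjusted p = 0.0637).

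*DUOX1*, an oxidase that releases hydrogen peroxide, had a single count in hybrids (comrhy61, 0.0713 CPM), none in *com*, and 1.88, 0.569, 0.841, 0.562 and 0.959 CPM in *rhy* from 66 counts. Only *rhy* libraries took it past the low-count filter, so the *rhy* level that sets the parental mean was partly selected for. The hybrid mean was 0.0296 times the arithmetic mean of the parents, with a counting interval of 0.00075 to 0.165. The fitted difference was below on the arithmetic scale (adjusted p = 0.0212), and without comrhy61, when no hybrid had a count, the adjusted p was 0.075. With libraries thinned to equal depth it was 0.117. On the log2 scale the fitted value depends on the prior count, since *com* was at 0.

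The other genes of the study's main candidate table were called on neither scale. *CADPS*, which primes vesicles for secretion, averaged 29.9 ± 7.57 CPM in hybrids, 25.7 ± 14.4 in *com* and 11.6 ± 4.71 in *rhy* (SD, n = 5 each), with differences of 0.79 (log2, 95% interval 0.20 to 1.38) and 0.68 (arithmetic, 0.07 to 1.28). *CLDN11*, a claudin of tight junctions, had 58.7 ± 6.996 CPM in hybrids, 33.3 ± 7.46 in *com* and 151 ± 40.0 in *rhy*. Its arithmetic difference of -0.65 had an adjusted p of 0.0208 but was within the fold limit, and its log2 difference was -0.28. *MIPOL1* averaged 4.14 CPM in hybrids, 4.94 CPM in *com* and 4.91 CPM in *rhy*, a difference of -0.24 on both scales (-0.87 to 0.38). *RYBP*, a Polycomb-associated protein, had a difference of 0.50 on both scales (-0.19 to 1.19).

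**Figure D5:**
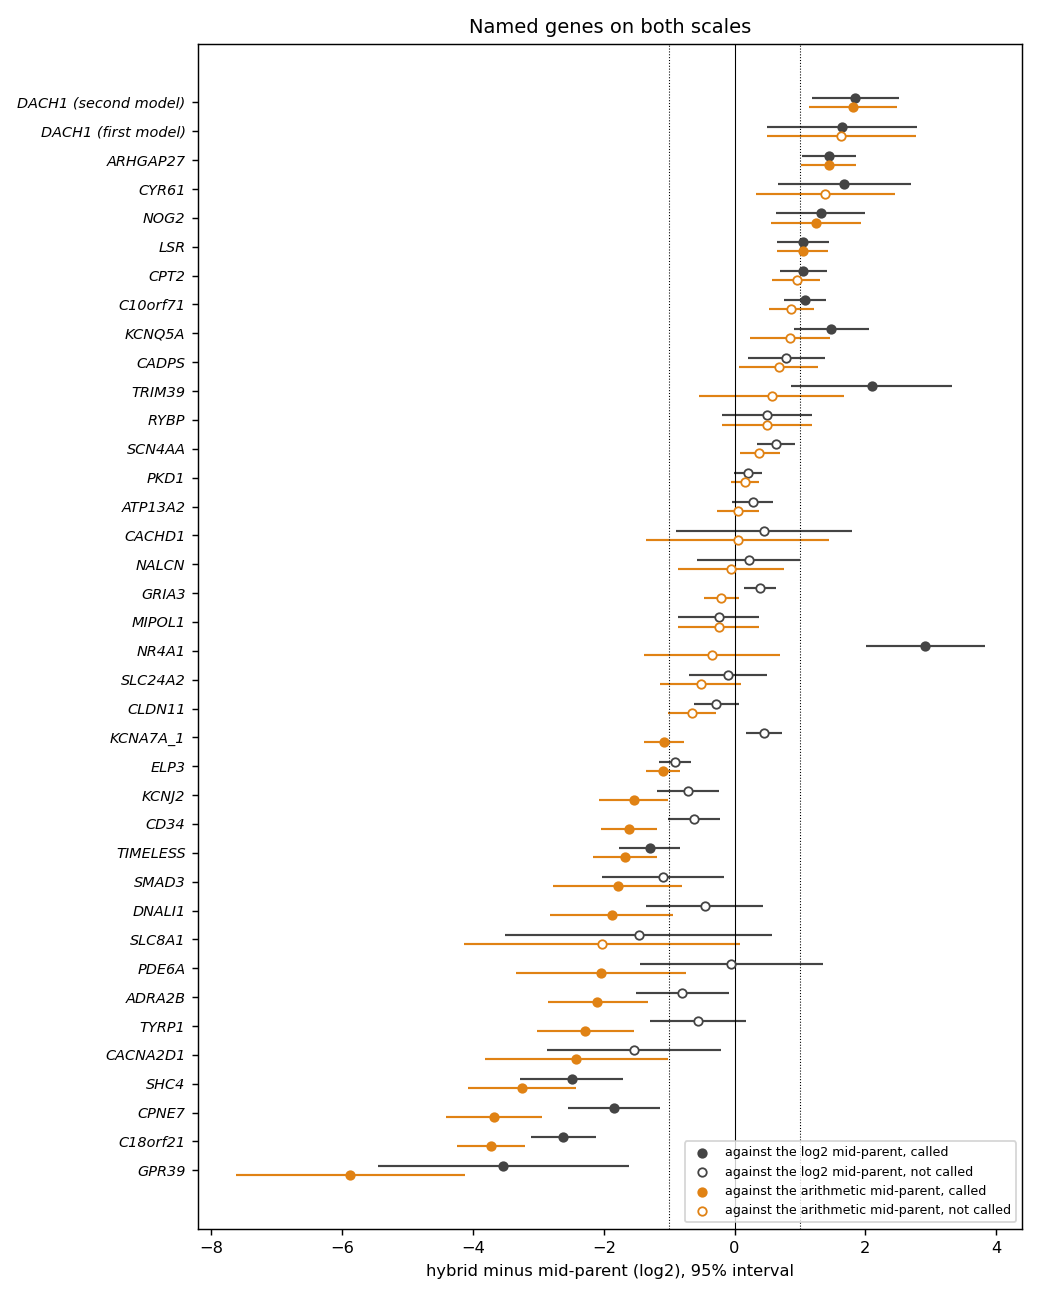
Difference between hybrids and mid-parent (x axis, log2, with 95% interval) for the named genes called on either scale, the ion channel list and the candidate genes, sorted by the arithmetic difference. Grey marks are against the log2 mid-parent and orange marks against the arithmetic mid-parent, filled where called. The dotted lines are the fold limits, and *DUOX1* is left out since *com* had no count. The widest gaps between both marks belong to *NR4A1* (2.92 and -0.34) and *GPR39* (-3.54 and -5.88).

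Over all genes tested, 1.45% were above and 1.33% below on both scales, 3.2% above on the log2 scale and 2.76% below on the arithmetic scale, and the counts of the small groups that follow stand beside these shares as a description. By group, the named genes of signalling and vesicle release had 2 of 26 above on both scales (*ARHGAP27*, *NOG2*) and 3 below on both (*CPNE7*, *SHC4*, *GPR39*), with 5 below on the arithmetic scale. Those of transcription, chromatin and DNA had 3 of 16 above on the log2 scale (*NR4A1* and both models of *DACH1*) and 2 below on the arithmetic scale (*SMAD3*, *TIMELESS*). Metabolic genes had 1 of 17 above on the log2 scale (*CPT2*) and 2 below on the arithmetic scale (*TYRP1*, *DUOX1*). Genes of adhesion, junctions and matrix had 2 of 16 above on the log2 scale (*CYR61*, *LSR*) and none below on either scale. Of 16 genes of the cytoskeleton and its motors, 1 was below on the arithmetic scale (*DNALI1*) and none was called on the log2 scale. The remaining 33 named genes had 2 above on the log2 scale (*C10orf71*, *TRIM39*) and 3 below on the arithmetic scale (*C18orf21*, *CD34*, *ELP3*).

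Most genes off the mid-parent carry no name in the study's tables and are given by their model. Among those above on both scales whose hybrids were all above the purebred fish, with a mean of at least 10 CPM, the largest difference was that of maker-ptg000047l-augustus-gene-9.3. It had 18.8, 172, 9.62, 67.7 and 12.2 CPM in hybrids, 2.65, 1.43, 6.17, 0.116 and 5.55 CPM in *com*, and 7.21, 9.17, 3.65, 5.30 and 2.33 CPM in *rhy*. The hybrids themselves differed widely, with comrhy60 and comrhy62 highest. The arithmetic difference was 3.70 ± 0.66 (adjusted p = 0.00202), and without comrhy60 and comrhy62 together it was 1.64 (adjusted p = 0.121).

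The model maker-ptg000901l-snap-gene-3.83 was less dependent on single fish, with 218, 224, 255, 174 and 119.9 CPM in hybrids, 108, 95.9, 35.8, 26.8 and 40.4 CPM in *com*, and 3.08, 12.2, 1.96, 10.5 and 1.92 CPM in *rhy*. All hybrids exceeded all *com* fish, which in turn exceeded all *rhy* fish. Its differences were 3.38 ± 0.43 (log2, adjusted p = 0.000208) and 2.55 ± 0.47 (arithmetic, adjusted p = 0.00239). The model maker-ptg000367l-snap-gene-5.58 averaged 116 ± 50.4 CPM in hybrids, 16.2 ± 3.97 in *com* and 23.8 ± 9.97 in *rhy* (SD, n = 5 each), 5.79 times the arithmetic mean (difference 2.53 ± 0.27, adjusted p = 4.86e-05).

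The most abundant model above on both scales was maker-ptg000068l-snap-gene-10.7, with 1321, 1082, 1389.5, 1520.3 and 952 CPM in hybrids, 662, 168, 94.8, 150.1 and 91.4 CPM in *com*, and 420.3, 237, 149.8, 252 and 173 CPM in *rhy*. No purebred fish reached the hybrids, although com104 stood well above the other *com* fish. The difference was 2.38 ± 0.40 (arithmetic, adjusted p = 0.00141), or 5.22 times the arithmetic mean. The next most abundant, maker-ptg000650l-snap-gene-7.49, had 1218, 1167, 459, 1028 and 371 CPM in hybrids, with means of 406 CPM in *com* and 389 CPM in *rhy*. Of these hybrids comrhy61 and comrhy63 lay among the purebred fish, and without comrhy59, comrhy60 or comrhy62 the adjusted p of the arithmetic difference (1.09 with all fish, adjusted p = 0.0224) was between 0.0658 and 0.0719.

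In the other direction, maker-ptg001587l-snap-gene-7.3 had 3.81, 3.60, 1.85, 3.38 and 3.60 CPM in hybrids, 4.11, 5.62, 110.2, 313 and 142 CPM in *com*, and 6.54, 12.7, 15.01, 25.4 and 9.52 CPM in *rhy*. All hybrids were below all purebred fish, but com104 and com121 were close to them, while the other 3 *com* fish were high. The arithmetic difference was -4.30 ± 0.79 (adjusted p = 0.00243). The models maker-ptg000039l-snap-gene-7.121 and snap_masked-ptg000039l-processed-gene-7.30, from the same contig, averaged 112 and 10.1 CPM in hybrids, 555 and 49.3 CPM in *com*, and 320.4 and 28.2 CPM in *rhy*. Their arithmetic differences were -1.97 ± 0.27 (adjusted p = 0.00027) and -1.93 ± 0.31 (adjusted p = 0.000896), and the hybrids had the same rank order in both. Whether these models share reads was not tested, so they may not be separate results.

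The most abundant model below on both scales was maker-ptg002301l-est_gff_est2genome-gene-0.25, with 1921, 1572, 1959, 1755 and 634 CPM in hybrids, 2581, 2579.8, 2532, 2244 and 2377 CPM in *com*, and 4448, 4506, 3813, 4213 and 3506 CPM in *rhy*. All hybrids were below all purebred fish, and comrhy63 was much lower than the others. The difference was -1.06 ± 0.19 (arithmetic, adjusted p = 0.00212) and -1.02 ± 0.19 (log2). Without comrhy63 it was -0.86 and -0.82, within the fold limit, as it was under scaling by library totals (-0.97 and -0.91). The next, maker-ptg000764l-snap-gene-4.170, averaged 407 ± 111 CPM in hybrids, 1671 ± 883 in *com* and 512 ± 134 in *rhy* (SD, n = 5 each), with differences of -1.42 (arithmetic, adjusted p = 0.00991) and -1.18 (log2, adjusted p = 0.0275). Leaving out comrhy59, comrhy60, comrhy61 or comrhy62 raised the adjusted p on the log2 scale to between 0.0602 and 0.0684.

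The genes above and below on both scales differed in how many hybrids lay on the called side, which the fold limit partly sets in advance. A few very high fish can lift the hybrid mean past the limit above while others stay under the mid-parent. Levels cannot be negative, so a mean past the limit below leaves little room for a fish over the mid-parent. The counts therefore cannot show whether the hybrids carried the genes above less evenly. For the 245 genes below, all 5 hybrids were under the arithmetic mid-parent in every gene. For the 269 genes above, all 5 were over it in 189 (70.3%), 4 in 50 and 3 or fewer in 30. In 111 of the 269 (41.3%) comrhy60 was the highest hybrid, and in the 245 the lowest hybrid was comrhy60 in 65. These counts describe the called genes and were not tested.

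Over all genes the hybrids also differed in such counts. Of 15910 genes with a mean of at least 1 CPM over all libraries, comrhy60 was more than 4-fold above the arithmetic mid-parent in 233 and more than 4-fold below it in 428. These numbers were 145 and 406 in comrhy62, 113 and 295 in comrhy59, 52 and 545 in comrhy61, and 51 and 306 in comrhy63, so that comrhy60 had the most genes far above and comrhy61 the most far below. In each of the 5 fish more genes were far below than far above the arithmetic mean, a yardstick that is never under the geometric mean. The median over these genes was close to it, between -0.07 and -0.05 on the log2 scale.

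Calls above the log2 mid-parent were densest among genes of low abundance. Among the 4623 genes with the lowest mean level 248 were above and 43 below the log2 mid-parent, and among the 4622 genes with the highest mean level (from 31.5 CPM) 79 were above and 69 below. On the arithmetic scale the low group had 106 above and 101 below, and the high group 37 above and 134 below. The low-count filter works on raw counts, and every hybrid library was larger than every *com* library. Genes near the filter limit could thus enter more readily through high hybrid levels, and the size of this selection was not tested. With the expression filter of edgeR (17025 genes), 497 were above and 241 below the log2 mid-parent. A parent without any count enters the log2 contrast through the prior count alone. There were 91 such genes in *com*, of which 39 were above the log2 and 7 above the arithmetic mid-parent, and 106 in *rhy*, of which 31 and 7 were above. Of 21 genes without a count in any hybrid, 3 were below the log2 and 5 below the arithmetic mid-parent.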

How the data were processed

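RNA of the electric organ of 15 juvenile fish was sequenced from poly(A)-selected, strand-specific libraries. Reads were trimmed by the authors (Trimmomatic version 0.39), and those of all groups were mapped to the *C. compressirostris* genome and quantified per gene with RSEM. Low levels in *rhy* could thus also reflect reads that mapped poorly to this genome, which was not tested. The deposited expected counts (RSEM estimates, not normalized) were rounded to whole numbers here. The deposited TPM and effective lengths entered alternatives only.

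The low-count filter (above 10 in at least 2 libraries) follows the study. The fit used edgeR (version 4.0.16) in R (version 4.3.3) on TMM-scaled counts with 1 coefficient per group, a common dispersion of 0.113 and a prior count of 0.125. The log2 mid-parent contrast was tested with the quasi-likelihood test. The arithmetic contrast, log2 of the hybrid level over the mean of both parental levels, was tested with a two-sided Wald test on the same coefficients, with a delta-method standard error and the moderated quasi-dispersion. The fitted differences thus carry the prior count, whereas ratios of mean CPM do not. Adjusted p-values are Benjamini-Hochberg values over all 18489 genes, separately for each scale, and genes were called at an adjusted p under 0.05 with a log2 difference beyond 1. Intervals of differences are 95% intervals from the same degrees of freedom. Both contrasts share the same fish, so calls on both are not independent. The steps were tested on simulated data.

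No library was a copy of another, since chi-square values between libraries of a group were 19.1 to 128 per degree of freedom. The members, gene lists and markers were chosen with earlier results of these data known. Names of models come from the study's tables. Of 145 legible names 141 were matched to a model, 3 of them (*KCNA7A_1*, *MIPOL1*, *CPT2*) through a corrected identifier, and 136 of these passed the filter. Every named gene called on either scale is named in the text, with the value of every fish for those with the largest arithmetic differences, together with the candidate genes, the whole ion channel list and, of the models without a name, at most 3 per direction with complete separation of the fish and the 2 most abundant per direction. Genes outside this rule are marked as chosen after their values were seen.

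Alternatives were DESeq2 (version 1.42.0) and its size factors, other scalings and filters, an effective length offset, thinning to equal depth, a robust fit, other limits, TPM in limma (version 3.58.1) and leaving out each fish. Tables and plots used Python (version 3.11.15) with pandas (version 2.3.3) and matplotlib (version 3.10.9).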

Additional observations from a re-analysis of the deposited data

Results flagged for a closer look

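Each group of 5 fish was checked for a single fish set apart from the other 4 (Dixon's ratio above 0.71), over 147 groups of the 49 genes checked, and 7 were found. At this limit chance alone marks about 1 group in 20 if values are normal and independent. That need not hold for CPM of genes from the same fish, so whether 7 exceeds chance was not tested.

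*KCNJ2* in com104 (374 CPM, against 109.8 to 175 CPM in the other *com* fish), *SCN4AA* in com104 (4975 CPM, against 2623 to 3301 CPM) and maker-ptg000068l-snap-gene-10.7 in com104 (662 CPM, against 91.4 to 168 CPM) were set apart in the same fish. *CYR61* stood apart in rhy49 (12.2 CPM, against 0.562 to 3.37 CPM) and *SLC8A1* in rhy50 (0.711 CPM, against 0 to 0.0803 CPM). In the hybrid comrhy61, *DUOX1* had the only count of its group (0.0713 CPM, against 0 in the others), and maker-ptg001587l-snap-gene-7.3 was lowest (1.85 CPM, against 3.38 to 3.81 CPM).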

How the results depend on the processing

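No paired analysis was possible because the labels give nothing that links a fish of 1 group to a fish of another. With all fish the calls were 591 above and 248 below the log2 mid-parent, 269 above and 511 below the arithmetic mid-parent, and 514 on both scales. Leaving out each fish in turn gave 377 to 612, 190 to 293, 147 to 298, 423 to 560 and 332 to 559. Scaling by library totals gave 385 above the arithmetic mid-parent, 790 above the log2 mid-parent, 395 below the arithmetic and 184 below the log2 mid-parent, and 565 on both scales. Leaving out comrhy60 and comrhy62 together gave 1.4% of the genes above and 0.676% below the log2 mid-parent, 0.454% above and 1.83% below the arithmetic mid-parent, and 1.12% on both scales. Without a fold limit there were 1377, 1034, 845, 1516 and 1876, with a fold limit of 1.5 there were 978, 548, 549, 960 and 1094, and with an unadjusted p under 0.05 there were 1061, 413, 621, 786 and 1032, these being wider limits by construction. TPM in limma with a pseudocount of 1 gave 353 above and 167 below the log2 mid-parent, and 533 and 207 with a pseudocount of 0.1, while the arithmetic contrast was not run on TPM. DESeq2's Wald test gave 669, 340, 353, 648 and 693. The cause of these shifts was not tested. Under the other alternatives each of the 5 counts stayed within 1.5 times its value.

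Of 98 values of single genes (39 named genes and 10 models without a name, on both scales), 59 kept their direction and their side of the limits under every alternative run. The sign changed for uncalled differences close to 0. Leaving out single fish, the arithmetic difference ranged from -0.30 to 0.18 for *NALCN*, from -0.17 to 0.21 for *CACHD1* and from -0.02 to 0.12 for *ATP13A2*, and the log2 difference from -0.02 to 0.38 for *NALCN*, from -0.30 to 0.26 for *PDE6A* and from -0.31 to 0.09 for *SLC24A2*. Scaling by library totals gave 0.11 for *NALCN* (arithmetic), 0.10 for *PDE6A* and 0.01 for *SLC24A2* (log2). Thinning gave 0.02 for *NALCN* (arithmetic), DESeq2's Wald test 0.02 for *PDE6A* (log2), and leaving out comrhy60 and comrhy62 together -0.02 for *ATP13A2* (arithmetic) and 0.17 for *SLC24A2* (log2). Without these 2 hybrids calls were also lost for *LSR* and *NOG2* (both scales), for *CYR61* and the *DACH1* model snap-gene-6.10 (log2), for *DNALI1*, *SMAD3* and *DUOX1* (arithmetic), and for the models maker-ptg000047l-augustus-gene-9.3, maker-ptg000650l-snap-gene-7.49 and maker-ptg000764l-snap-gene-4.170 (both scales) and maker-ptg001587l-snap-gene-7.3 (log2). The differences of *CYR61*, *DNALI1* and *SMAD3* were then larger (1.86, -1.99 and -1.98), with adjusted p-values of 0.0736, 0.0501 and 0.065. Low counts limit the text most for *GPR39*, *DUOX1*, *TRIM39* and *CACHD1*, and the log2 contrast of genes with a parent at 0. They also limit the *DACH1* model augustus-gene-6.4 and the gap between hybrids and *com* in *C18orf21*.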
